A study of Homo sapiens with 6 samples.

Results

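MicroRNA host genes are genes whose transcripts carry the hairpins from which microRNAs are cut. Those described here are named for that role, with a symbol that begins with MIR and ends with HG, and 60 of the 58302 rows in the gene table had such a symbol. The study addressed splicing controlled by the RNA helicase DDX17 in liver cancer, and RNA sequencing compared a DDX17 KO line of MHCC97H cells with a non-target control line of the same cells. MHCC97H is a human hepatocellular carcinoma cell line, both lines were made with CRISPR/Cas9, and both grew in DMEM with fetal bovine serum. Each line was sequenced as 3 libraries of total RNA. The labels do not say whether the knockout line is 1 clone, nor whether the libraries of a line came from separate cultures, so p-values measure only the spread between these libraries, which may be technical.

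A microRNA starts as part of a long primary transcript, which is often noncoding. In the nucleus the Microprocessor, made of the nuclease DROSHA and its partner DGCR8, cuts the hairpin out of that transcript, and the helicases DDX17 and DDX5 are known as accessory proteins of this complex. DICER1 trims the exported hairpin, and an Argonaute protein then carries the mature strand to messenger RNAs that pair with its seed. The host gene level measured here is that of the long RNA and not that of the mature microRNA.

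The mature strands of the best-known microRNAs in the measured hosts are shown first, so that seeds shared within and between hosts can be seen. Of the 28 hairpins inside the 14 hosts that entered the test, 24 matched the RefSeq table (GRCh38.p14) by symbol. The 18 mature strands printed come from that table, 5′ to 3′, with the seed, bases 2 to 8, in capitals, and they held 13 distinct seeds. The first set comes from MIRLET7BHG on chromosome 22 (let-7a and let-7b) and MIR99AHG on chromosome 21 (let-7c and miR-99a), and its 3 let-7 strands have the same seed.
let-7a-5p: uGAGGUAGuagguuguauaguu
let-7b-5p: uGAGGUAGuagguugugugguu
let-7c-5p: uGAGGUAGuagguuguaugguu
miR-99a-5p: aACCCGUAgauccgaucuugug

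The next set is the cluster of MIR17HG on chromosome 13. In it miR-17 and miR-20a have 1 seed in common and miR-19a and miR-19b another, while miR-18a and miR-92a each have their own.
miR-17-5p: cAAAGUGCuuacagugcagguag
miR-20a-5p: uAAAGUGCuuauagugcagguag
miR-18a-5p: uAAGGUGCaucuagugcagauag
miR-19a-3p: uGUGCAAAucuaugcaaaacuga
miR-19b-3p: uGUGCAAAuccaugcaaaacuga
miR-92a-3p: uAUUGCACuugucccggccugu

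The last set starts with miR-221 and miR-222 of MIR222HG on chromosome X, which have the same seed. The others come from MIR31HG and MIR181A2HG on chromosome 9, MIR193BHG on chromosome 16, MIR34AHG on chromosome 1 and MIR210HG on chromosome 11, and have a seed of their own each.
miR-221-3p: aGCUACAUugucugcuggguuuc
miR-222-3p: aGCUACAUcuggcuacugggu
miR-31-5p: aGGCAAGAugcuggcauagcu
miR-181a-5p: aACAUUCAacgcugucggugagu
miR-193b-3p: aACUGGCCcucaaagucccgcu
miR-365a-3p: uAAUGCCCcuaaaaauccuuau
miR-34a-5p: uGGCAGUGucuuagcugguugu
miR-210-3p: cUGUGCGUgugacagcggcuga

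The libraries held from 5350000 to 10620000 estimated fragments in DDX17 KO and from 12340000 to 14550000 in controls. DDX17 itself stood at 22.4, 7.64 and 19.1 FPKM (fragments scaled to transcript length and library depth) in DDX17 KO replicates 1, 2 and 3, against 45.7, 41.4 and 43.9 FPKM in control replicates 1, 2 and 3, so it was lower in each DDX17 KO library. The libraries numbered 2 stood apart in both groups, with deviations from the group means that correlated at 0.546 across 15620 genes, and DDX17 KO replicate 2 was also the shallowest. The 5 epithelial markers summed to 255 to 408 FPKM in DDX17 KO and 283 to 338 FPKM in controls, nearly all of it KRT8 and KRT18, since KRT19, EPCAM and CDH1 were each under 0.5 FPKM in every library. The 4 fibroblast markers summed to 8.27 to 21.4 FPKM in DDX17 KO and 16.2 to 18.9 FPKM in controls, nearly all of it COL1A1 and LUM. The 12 hepatocyte and liver carcinoma markers, ALB and AFP among them, summed to at most 0.0406 FPKM in DDX17 KO and 1.12 FPKM in controls. None of those 12 reached a mean of 0.5 FPKM, and ALB was at 0 in all DDX17 KO libraries. The 5 red cell markers summed to at most 0.652 FPKM in DDX17 KO and to between 54.0 and 69.6 FPKM in controls. Whether any of these differences has a part in the host gene values was not tested. In bulk RNA, fewer cells with a transcript and less of it per cell cannot be told apart.

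Between 24 and 29 of the 60 host genes were above 0 in any one library. The number was 26, 27 and 28 in DDX17 KO replicates 1, 2 and 3, against 29, 24 and 25 in control replicates 1, 2 and 3, and the groups overlapped. These are 43.3% to 46.7% of the host genes in DDX17 KO and 40% to 48.3% in controls, where 36.9% to 41.6% of all rows were above 0 in DDX17 KO and 39.1% to 39.6% in controls. There were 21 host genes above 0 in all 6 libraries, 15 in 1 to 5 libraries, and 24 listed at 0 in every library. Those at 0 included MIR155HG, best known from activated lymphocytes, MIR205HG, best known from basal epithelium, and MIRLET7DHG. The let-7d hairpin inside the MIRLET7DHG locus lies on the opposite strand and was above 0 in every library. It had 2 fragments in each DDX17 KO library and 3, 3 and 4 in control replicates 1, 2 and 3, and its groups overlapped in FPKM. For the 23 of these 24 with an annotated length, 3 fragments in the shallowest library would make 0.109 to 1.32 FPKM at the median transcript length. That is only roughly the level that a listing at 0 there still allows. The limit is lower in the deeper libraries and for transcripts longer than the median, and other hosts, such as MIR22HG and MIR194-2HG, were listed at values under it. MIR22HG, with 19 transcripts, stood at 0.0583 FPKM in the shallowest library, against 0.960 FPKM for 3 fragments at its median length. That value would be less than a whole fragment, so the median length does not hold for every gene. There were 6 host genes above 0 in DDX17 KO libraries only and 3 in control libraries only, and none of the 6 was above 0 in all 3 DDX17 KO libraries.

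**Figure D1:**
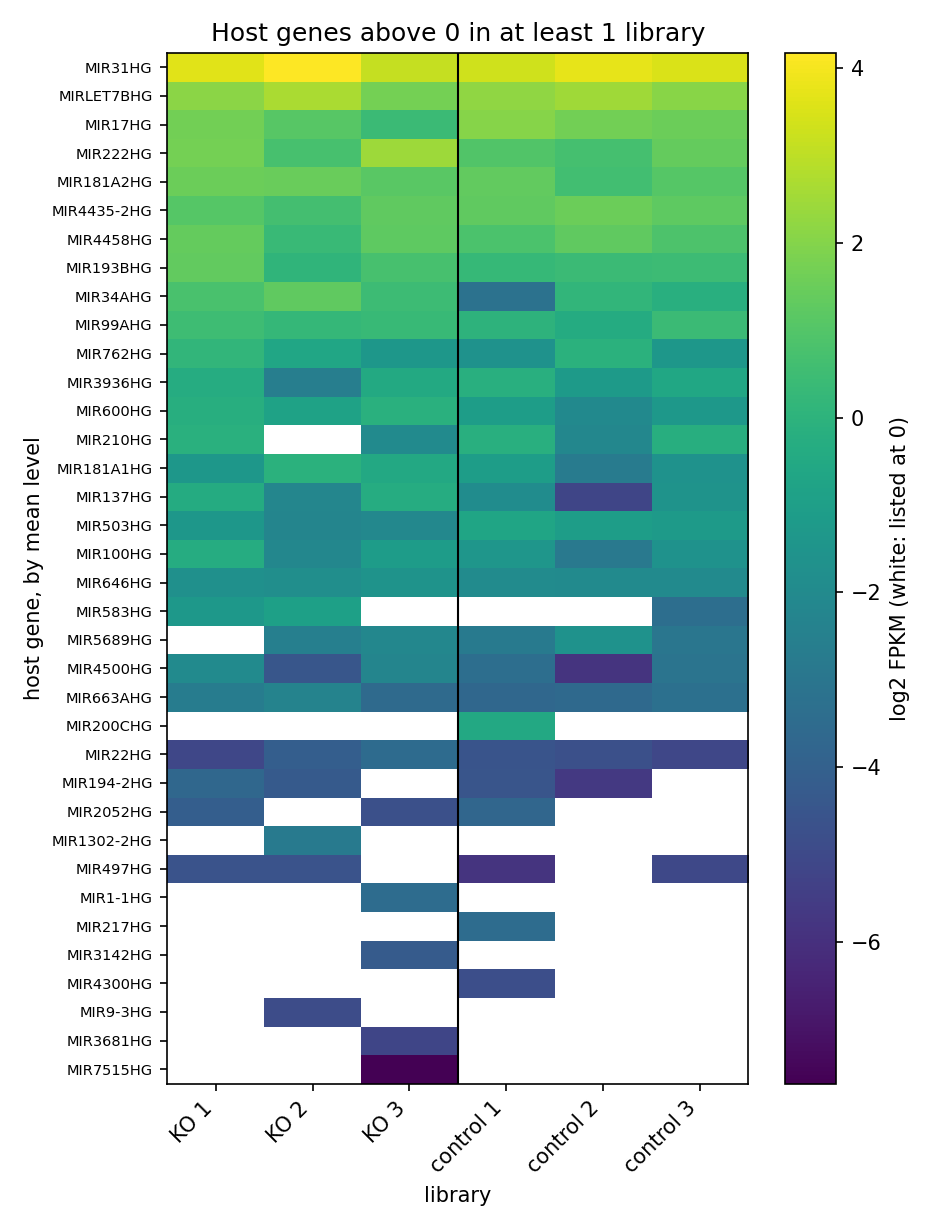
Level of the 36 host genes above 0 in at least 1 library, in log2 FPKM by colour, ordered by mean level, with the 3 DDX17 KO libraries left of the 3 control libraries and white where a gene is listed at 0. The genes above 0 in all 6 libraries are mostly in the upper part, and the lowest genes are white in most libraries of both groups.

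Host gene levels were low, and none of the differences between the groups passed the test. The 14 host genes that averaged 0.5 FPKM or more across the 6 libraries were tested within a limma fit on log2(FPKM + 1) over 15620 genes, of which 0.0384% passed an adjusted p of 0.05. Of the 14, 0 passed in either direction. DDX17 itself, with a fitted log2 fold change of -1.48, did not pass either (limma p 0.00390 unadjusted and 0.282 adjusted). At an unadjusted limma p under 0.05, 1 of the 14 was called, MIR34AHG, against 13.5% of all genes tested, 6.31% higher and 7.19% lower in DDX17 KO. In 2 of the 14, MIR34AHG and MIR600HG, the groups did not overlap and DDX17 KO was higher. Of all genes tested 20.7% did not overlap, 8.09% higher and 12.6% lower in DDX17 KO. The median log2 fold change was 0.13 over the 14 host genes and -0.03 over all genes tested, and 9 of the 14 lay above 0 and 5 below.

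**Figure D2:**
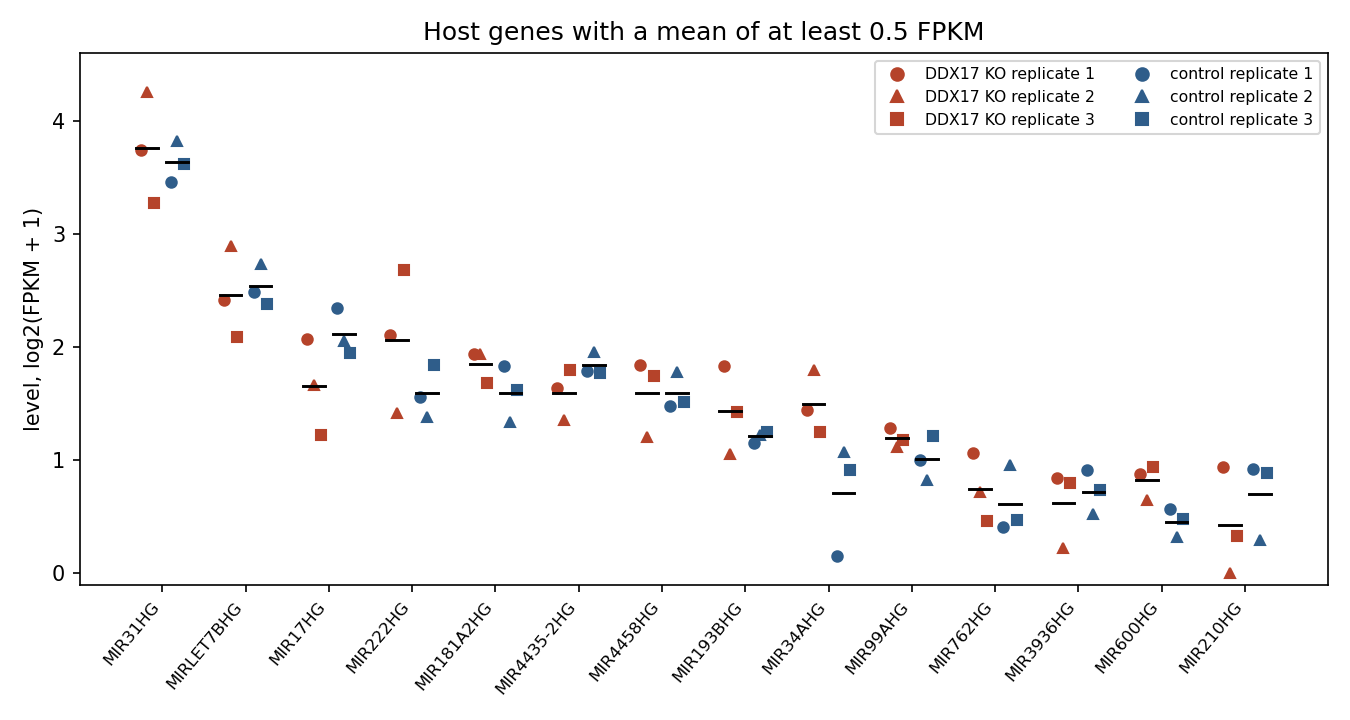
Level of each of the 14 tested host genes in log2(FPKM + 1), with the 3 DDX17 KO libraries left of the 3 control libraries, marker shapes for the replicate number and a bar at each group's mean on this scale. The groups overlap in all genes shown except MIR34AHG and MIR600HG, and MIR31HG is the highest.

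MIR34AHG, the host of miR-34a, which is known as a transcriptional target of p53, was higher in every DDX17 KO library than in every control library but did not pass. MIR34AHG (ENSG00000228526, hg38 chromosome 1, 9148011 to 9196983, minus strand) stood at 1.72, 2.47 and 1.37 FPKM in DDX17 KO replicates 1, 2 and 3, against 0.110, 1.10 and 0.881 FPKM in control replicates 1, 2 and 3. Control replicate 1 was far below the other libraries, and replicate 2 was the highest of each group. MIR34AHG averaged 1.85 ± 0.560 FPKM in DDX17 KO and 0.698 ± 0.521 FPKM in controls (SD, n = 3 each). This made a fitted log2 fold change of 0.78 (SE 0.28, 95% confidence interval 0.14 to 1.43), which became 1.60 and 1.88 with pseudocounts of 0.1 and 0.01 and 1.88 by voom on approximate fragments. Its limma p was 0.0239 unadjusted and 0.364 adjusted, and 0.105 adjusted when replicate numbers entered the fit as blocks. Without control replicate 1 the log2 fold change was 0.50, and without DDX17 KO replicate 2 it was 0.63 with a limma adjusted p of 0.167. The miR-34a hairpin lies in an exon of 1 of the 4 annotated transcripts, and 4.32% of the 31-base words of the host's transcripts also occur in LNCTAM34A at the same locus.

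MIR600HG was the other host gene with groups that did not overlap. MIR600HG (ENSG00000236901, chromosome 9, 123109494 to 123115477, minus strand), the host of miR-600, stood at 0.842, 0.562 and 0.917 FPKM in DDX17 KO replicates 1, 2 and 3, against 0.481, 0.246 and 0.396 FPKM in control replicates 1, 2 and 3. The lowest DDX17 KO library was close to the highest control library, and replicate 2 was the lowest of each group. MIR600HG had a fitted log2 fold change of 0.37 (SE 0.17), and its limma adjusted p was 0.373, or 0.0899 without DDX17 KO replicate 2. The log2 fold change became 0.89 and 1.05 with pseudocounts of 0.1 and 0.01 and 1.11 by voom. Its locus, annotated as sense intronic, overlaps STRBP on the same strand, and STRBP averaged 4.25 ± 1.50 FPKM in DDX17 KO and 3.68 ± 0.930 FPKM in controls (SD, n = 3 each). How fragments were divided between the 2 genes was not tested.

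MIR222HG and MIR17HG carry clusters best known as growth-promoting in tumours. MIR222HG (ENSG00000270069, chromosome X, 45745211 to 45770274, minus strand), whose intronic miR-221 and miR-222 are known to repress the cell cycle inhibitor CDKN1B, stood at 3.30, 1.67 and 5.40 FPKM in DDX17 KO replicates 1, 2 and 3, against 1.94, 1.60 and 2.58 FPKM in control replicates 1, 2 and 3. DDX17 KO replicates 1 and 3 were above every control, and DDX17 KO replicate 2 lay among the controls. On the log2 scale MIR222HG differed by 0.47 (95% confidence interval -0.27 to 1.21, limma adjusted p 0.473). It was 0.80 without DDX17 KO replicate 2, with an adjusted p of 0.0757, and 0.17 without DDX17 KO replicate 3. A long noncoding gene inside the locus on the same strand, AC234772.3, averaged 4.12 ± 2.38 FPKM in DDX17 KO and 1.18 ± 0.504 FPKM in controls (SD, n = 3 each), and its part in the MIR222HG values was not tested.

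MIR17HG (ENSG00000215417, chromosome 13, 91347820 to 91354579, plus strand), known as a MYC target that is amplified in lymphomas, had the lowest fitted value of the 14 on the log2(FPKM + 1) scale, while with pseudocounts of 0.1 and 0.01 MIR210HG was lower. MIR17HG stood at 3.21, 2.17 and 1.33 FPKM in DDX17 KO replicates 1, 2 and 3, against 4.07, 3.15 and 2.85 FPKM in control replicates 1, 2 and 3. DDX17 KO replicate 1 was above control replicates 2 and 3, so the groups overlapped, while DDX17 KO replicates 2 and 3 were below every control. MIR17HG had a fitted log2 fold change of -0.46 (SE 0.25, 95% confidence interval -1.04 to 0.12), and its limma adjusted p was 0.408. Leaving out single libraries moved it between -0.67 without DDX17 KO replicate 1 and -0.24 without DDX17 KO replicate 3.

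**Figure D3:**
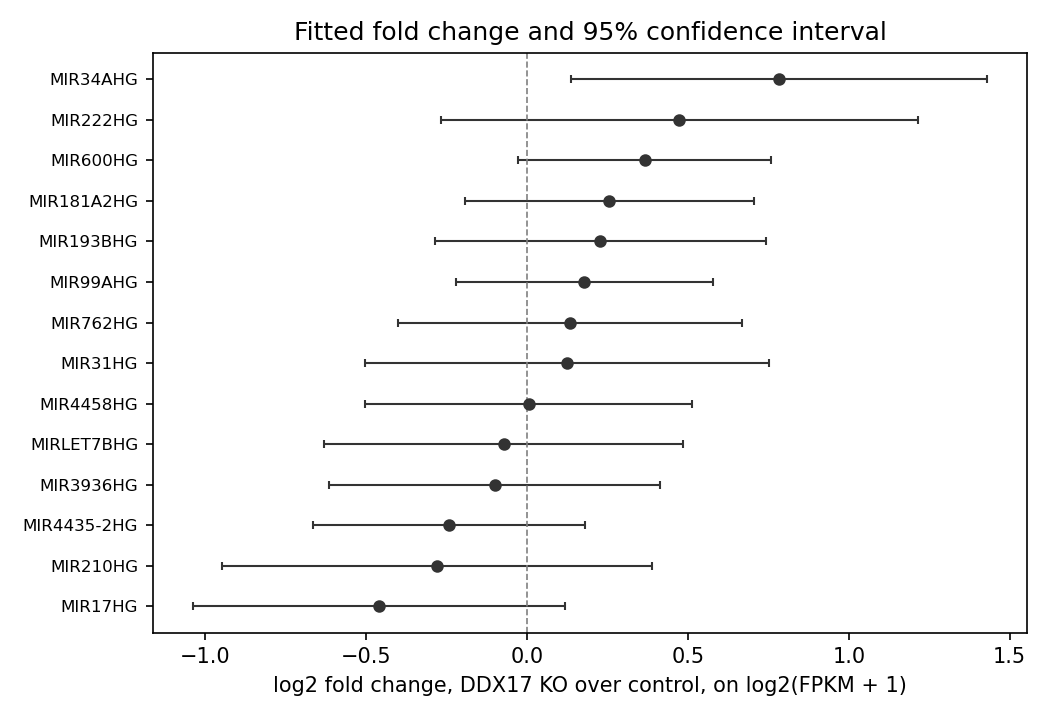
Fitted log2 fold change of each tested host gene, DDX17 KO over control on the log2(FPKM + 1) scale, with bars for the 95% confidence interval from limma. The interval of MIR34AHG, from 0.14 to 1.43, lies above 0, and those of the other 13 genes include 0.

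The hosts of let-7, a family known to repress RAS and HMGA2, did not pass. MIRLET7BHG (ENSG00000197182, chromosome 22, 46053869 to 46113928, plus strand), which carries let-7a-3 and let-7b in an exon of 1 of its 4 transcripts, stood at 4.32, 6.42 and 3.25 FPKM in DDX17 KO replicates 1, 2 and 3, against 4.62, 5.67 and 4.21 FPKM in control replicates 1, 2 and 3. Replicate 2 was the highest library of each group, and the control range lay within the DDX17 KO range. The fitted log2 fold change of MIRLET7BHG was -0.07 (95% confidence interval -0.63 to 0.49), and leaving out single libraries moved it between -0.29 without DDX17 KO replicate 2 and 0.11 without DDX17 KO replicate 3. MIR99AHG (ENSG00000215386, chromosome 21, 15928296 to 16627397, plus strand), with miR-99a, let-7c and miR-125b-2 in introns, stood at 1.44, 1.16 and 1.26 FPKM in DDX17 KO replicates 1, 2 and 3, against 1.00, 0.774 and 1.32 FPKM in control replicates 1, 2 and 3. Control replicate 3 lay among the DDX17 KO libraries and the other controls below them. For MIR99AHG the log2 fold change was 0.18 (95% confidence interval -0.22 to 0.58), with 0.085 without control replicate 2 and 0.28 without control replicate 3. It became 0.32 and 0.35 with pseudocounts of 0.1 and 0.01, 0.51 by voom and 0.085 with quantile normalization.

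MIR31HG, the most abundant of the hosts, lies in the region of the tumour suppressor gene CDKN2A. MIR31HG (ENSG00000171889, chromosome 9, 21455642 to 21559669, minus strand) has 1 annotated transcript, which allows whole fragments to be read. There were 98, 72 and 53 in DDX17 KO replicates 1, 2 and 3, against 92, 136 and 122 in control replicates 1, 2 and 3. Scaled to depth these made 12.4, 18.1 and 8.67 FPKM in DDX17 KO and 10.0, 13.1 and 11.3 FPKM in controls, with a DDX17 KO library at each end of the order. For MIR31HG the log2 fold change was 0.12 (95% confidence interval -0.50 to 0.75), and it was -0.12 without DDX17 KO replicate 2, 0.37 without DDX17 KO replicate 3, 0.038 without control replicate 1 and 0.22 without control replicate 2. Of the 31-base words in its transcript, 38.6% also occur in the interferon pseudogene IFNWP19, which overlaps the locus and was listed at 0 in all libraries, so how fragments were divided between them is uncertain.

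MIR181A2HG and MIR193BHG carry microRNA pairs in introns. MIR181A2HG (ENSG00000224020, chromosome 9, 124658467 to 124698631, plus strand), the host of miR-181a-2 and miR-181b-2, had 20, 10 and 12 fragments in DDX17 KO replicates 1, 2 and 3, against 21, 14 and 20 in control replicates 1, 2 and 3. In FPKM these were 2.84, 2.82 and 2.21 in DDX17 KO, against 2.57, 1.52 and 2.08 in controls, where control replicate 1 was above DDX17 KO replicate 3. MIR181A2HG had a fitted log2 fold change of 0.26 (limma adjusted p 0.511), and it was 0.12 without control replicate 2 and 0.44 by voom. It lies inside NR6A1 on the opposite strand, and no source used here says that fragments were assigned by strand. MIR193BHG (ENSG00000262454, chromosome 16, 14301389 to 14331067, plus strand), the host of miR-193b and miR-365a, stood at 2.56, 1.07 and 1.69 FPKM in DDX17 KO replicates 1, 2 and 3, against 1.23, 1.34 and 1.37 FPKM in control replicates 1, 2 and 3. The controls were close together, and the DDX17 KO libraries lay on both sides of them. That of MIR193BHG was 0.23 (limma adjusted p 0.602), and it was 0.42 without DDX17 KO replicate 2 and 0.031 without DDX17 KO replicate 1. It became 0.35 at a pseudocount of 0.01, 0.45 by voom and 0.14 with quantile normalization.

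MIR210HG, the host of the hypoxia-induced miR-210, was listed at 0 in 1 library. MIR210HG (ENSG00000247095, chromosome 11, 565660 to 568457, minus strand) stood at 0.915, 0 and 0.256 FPKM in DDX17 KO replicates 1, 2 and 3, against 0.894, 0.227 and 0.848 FPKM in control replicates 1, 2 and 3. Replicate 2 was the lowest of each group, and 3 fragments there in DDX17 KO would make 0.760 FPKM at the median transcript length. MIR210HG has 4 annotated transcripts, and the length behind its FPKM is not known. A longer transcript would lower that level, so how much that 0 still allows is uncertain. For MIR210HG the log2 fold change was -0.28 (95% confidence interval -0.95 to 0.39), and it ran from -0.54 without DDX17 KO replicate 1 to -0.07 without DDX17 KO replicate 2, with -0.48 without control replicate 2 and -0.17 without control replicate 1. It became -1.03 and -2.07 with pseudocounts of 0.1 and 0.01 and -0.52 by voom.

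MIR4435-2HG is a long noncoding gene that resembles CYTOR, and it had 25 annotated transcripts. MIR4435-2HG (ENSG00000172965, chromosome 2, 111196350 to 111495100, minus strand) stood at 2.12, 1.55 and 2.48 FPKM in DDX17 KO replicates 1, 2 and 3, against 2.46, 2.88 and 2.40 FPKM in control replicates 1, 2 and 3. DDX17 KO replicates 1 and 2 were below every control and DDX17 KO replicate 3 was not. The fitted log2 fold change of MIR4435-2HG was -0.24 (limma adjusted p 0.510), and -0.12 without DDX17 KO replicate 2. Of its 31-base words 25.2% also occur in CYTOR, which averaged 2.73 ± 0.529 FPKM in DDX17 KO and 2.81 ± 0.217 FPKM in controls (SD, n = 3 each), and how the authors' counting split fragments between them is uncertain.

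MIR4458HG, MIR762HG and MIR3936HG carry microRNAs of less known function. MIR4458HG (ENSG00000247516, chromosome 5, 8450743 to 8463095, plus strand) stood at 2.59, 1.30 and 2.34 FPKM in DDX17 KO replicates 1, 2 and 3, against 1.79, 2.44 and 1.85 FPKM in control replicates 1, 2 and 3. Replicate 2 was the lowest DDX17 KO library and the highest control library, and the 95% confidence interval of the log2 fold change ran from -0.50 to 0.51. The fitted value was -0.12 without DDX17 KO replicate 1 and 0.20 without DDX17 KO replicate 2, and each other library left out but control replicate 2 gave a value below 0. MIR762HG (ENSG00000260083, chromosome 16, 30875222 to 30895220, plus strand) stood at 1.09, 0.642 and 0.380 FPKM in DDX17 KO replicates 1, 2 and 3, against 0.329, 0.943 and 0.386 FPKM in control replicates 1, 2 and 3. The groups of MIR762HG spanned nearly the same range, the log2 fold change was 0.13, from -0.023 without DDX17 KO replicate 1 to 0.31 without control replicate 2 and 0.53 by voom, and 52.6% of its 31-base words occur in other annotated genes. Its locus overlaps BCL7C on the opposite strand, which averaged 1.78 ± 0.410 FPKM in DDX17 KO and 2.53 ± 0.210 FPKM in controls (SD, n = 3 each). MIR3936HG (ENSG00000233006, chromosome 5, 132311285 to 132369916, minus strand) stood at 0.795, 0.169 and 0.735 FPKM in DDX17 KO replicates 1, 2 and 3, against 0.881, 0.434 and 0.664 FPKM in control replicates 1, 2 and 3. DDX17 KO replicate 2 was the lowest of the 6 at MIR3936HG, and the log2 fold change was -0.10. It was 0.098 without DDX17 KO replicate 2, -0.21 without DDX17 KO replicate 1 and -0.44 at a pseudocount of 0.01. Its locus overlaps the organic cation and carnitine transporter genes SLC22A5 and SLC22A4 on the opposite strand, and SLC22A4 averaged 1.22 ± 0.394 FPKM in DDX17 KO and 3.24 ± 0.549 FPKM in controls (SD, n = 3 each).

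The library numbered 2 was at the same extreme of both groups in 8 of the 14 tested hosts. It was the highest of both groups in 3, MIR31HG, MIRLET7BHG and MIR34AHG, against 31.7% of all genes tested. It was the lowest of both groups in 5, MIR222HG, MIR99AHG, MIR3936HG, MIR600HG and MIR210HG, against 27.3% of all genes tested. The GC content of the transcripts was 50.9% to 63.3% in the first set of hosts and 36.6% to 64.7% in the second. Over the genes tested, deviations from the group mean correlated with GC content (Spearman) at 0.473 in DDX17 KO replicate 2 and 0.532 in control replicate 2. In the other libraries this correlation was -0.487 to -0.288. The part of GC content in the host gene values was not tested. Without DDX17 KO replicate 2 there was no overlap in 4 of the 14, MIR222HG, MIR193BHG, MIR34AHG and MIR600HG, all higher in DDX17 KO, where 60.8% of all genes tested did not overlap, 28.2% higher and 32.6% lower. Without DDX17 KO replicate 3 there was none in 4 as well, MIR181A2HG, MIR34AHG and MIR600HG, higher, and MIR4435-2HG, lower, where 26.6% of all genes tested did not. No host gene passed without DDX17 KO replicate 2, where 3.66% of all genes tested did by limma, 1.95% higher and 1.72% lower.

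**Figure D4:**
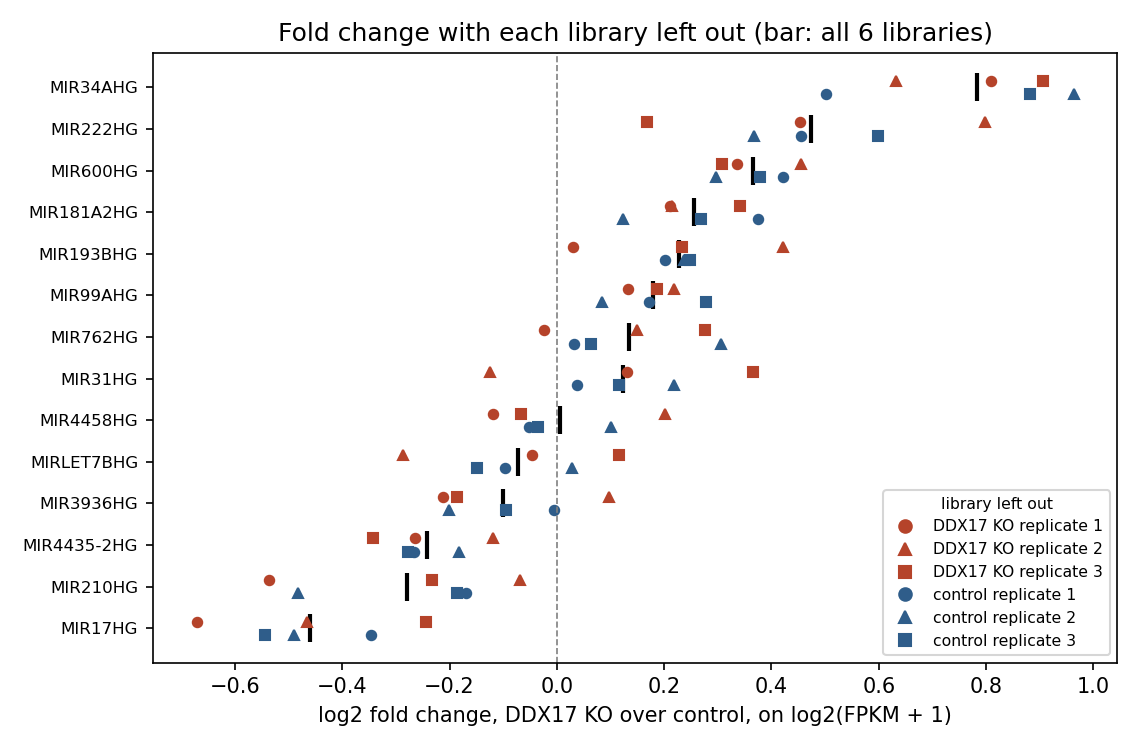
Log2 fold change of each tested host gene, DDX17 KO over control on the log2(FPKM + 1) scale, with all 6 libraries (bar) and with each library left out (points, coloured by the group and shaped by the number of the library left out). MIR34AHG runs from 0.50 to 0.96, while MIR31HG, MIRLET7BHG, MIR4458HG, MIR762HG and MIR3936HG have points on both sides of 0.

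The hairpins themselves were covered by few fragments. The table has entries for 93 microRNA hairpins inside the 60 host loci, 88 of them on the strand of the host. For MIR4432, inside MIR4432HG, the strand of the host was not known. Of the 28 inside the 14 tested hosts, 15 lie in introns and 13 within an exon of at least 1 transcript, and 24 were above 0 in at least 1 library. MIR4519, counted among the 13, lies on the strand opposite to its host MIR762HG. Each hairpin has 1 transcript, so its FPKM gives whole fragments, and all 161 values above 0 among the 93 were within 0.1 of a whole number. In 106 of the 161 that number was 1, and the largest was 11. MIR17, MIR20A and MIR92A1, which lie in an exon of 2 of the 3 MIR17HG transcripts, each had 1 fragment in each of the 6 libraries, although the libraries differed in depth.

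A few hairpins held more fragments, among them MIR18A of the MIR17HG cluster. MIR18A had 4, 3 and 1 fragments in DDX17 KO replicates 1, 2 and 3, against 7, 3 and 6 in control replicates 1, 2 and 3. MIR365A of MIR193BHG had 3, 4 and 2 fragments in DDX17 KO replicates 1, 2 and 3, against 9, 11 and 4 in control replicates 1, 2 and 3. The control libraries were deeper, and these fragments were not scaled to depth. MIR221 had 6, 3 and 6 fragments in DDX17 KO replicates 1, 2 and 3, against 6, 5 and 9 in control replicates 1, 2 and 3, while MIR222 of the same host was at 0 in all 6. MIR193B had 2, 1 and 1 fragments in DDX17 KO and 4, 4 and 3 in controls, in the same order of replicates. MIRLET7B had 3, 1 and 1 in DDX17 KO and 6, 3 and 4 in controls. Scaled to length and depth, MIR193B stood at 2.27, 2.25 and 1.47 FPKM in DDX17 KO, below the 3.91, 3.47 and 2.48 FPKM of controls, while the groups of MIR18A, MIR365A, MIR221 and MIRLET7B overlapped. MIR3619 of MIRLET7BHG had 4, 2 and 2 fragments in DDX17 KO and 4, 5 and 2 in controls, and MIR3936 had 4, 1 and 5 in DDX17 KO and 2, 2 and 4 in controls.

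The other hairpins above 0 in the tested hosts had at most 3 fragments in any library. They were MIR31, MIRLET7A3, MIR4763, MIR17, MIR19A, MIR20A, MIR19B1, MIR92A1, MIR181A2, MIR181B2, MIR4458, MIR34A, MIR99A, MIRLET7C, MIR125B2, MIR4519 and MIR600. MIR34A, whose host had groups that did not overlap, had 1 fragment in each DDX17 KO library and 1, 1 and 0 in control replicates 1, 2 and 3. In FPKM these made 0.856, 1.70 and 1.11 in DDX17 KO, above the 0.737, 0.654 and 0 of controls. MIR31 had 1, 0 and 1 fragments in DDX17 KO replicates 1, 2 and 3 and 0, 1 and 0 in control replicates 1, 2 and 3, although MIR31HG was the most abundant host. Summed over the 28 hairpins and scaled to depth, the number per 1000000 library fragments was 4.143, 4.112 and 4.385 in DDX17 KO replicates 1, 2 and 3, against 4.295, 3.235 and 3.162 in control replicates 1, 2 and 3. Control replicate 1 lay among the DDX17 KO libraries, so the groups overlapped.

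In FPKM there was no overlap between groups for 8 of the 28 hairpins, against 20.7% of all genes tested. That share covers genes that averaged 0.5 FPKM or more. The hairpins were taken without that minimum and mostly held few fragments, so the share is not a like background for them. MIR193B was lower in DDX17 KO, and 7 were higher, MIR4763, MIR17, MIR19A, MIR20A, MIR92A1, MIR34A and MIRLET7C. MIR4763, MIR17, MIR20A and MIR92A1 had 1 fragment in each of the 6 libraries. Every DDX17 KO library was shallower than every control, so 1 fragment made more FPKM in each of them, and the order of these 4 hairpins is that of the depths. MIRLET7C had 2, 1 and 1 fragments in DDX17 KO replicates 1, 2 and 3, against 1, 0 and 1 in control replicates 1, 2 and 3, and MIR19A had 1, 1 and 2 in DDX17 KO and 1 in each control. In MIRLET7C, MIR19A and MIR34A too, the libraries of both groups that had 1 fragment are ordered by depth alone.

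Below the mean of 0.5 FPKM, 22 further host genes were above 0 in at least 1 library, and 11 of these in at least 4. Without overlap between the groups were 2 of these 22, against 9.92% of the 14983 genes below that mean and above 0 in at least 1 library. MIR503HG, the host of miR-503, stood at 0.391, 0.212 and 0.230 FPKM in DDX17 KO replicates 1, 2 and 3, below the 0.612, 0.488 and 0.441 FPKM of control replicates 1, 2 and 3. MIR646HG stood at 0.306, 0.289 and 0.339 FPKM in DDX17 KO replicates 1, 2 and 3, above the 0.264, 0.256 and 0.255 FPKM of control replicates 1, 2 and 3. At the median transcript length, 3 fragments in the shallowest library would make 0.864 FPKM for MIR503HG and 1.05 FPKM for MIR646HG. All the values of both genes were under these levels. MIR503HG has 5 annotated transcripts and MIR646HG 11, and the length behind their FPKM is not known. A longer transcript or a deeper library would lower these levels, so how many fragments the values rest on was not read. Of those 14983 genes 4.08% were lower without overlap and 5.84% higher. When the minimum was dropped and all 36 host genes above 0 were fitted, 0 passed.

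MIR137HG, MIR100HG, MIR181A1HG and MIR4500HG were detected in every library at low levels, with groups that overlapped. MIR137HG, the host of miR-137, best known from neurons, stood at 0.786, 0.218 and 0.793 FPKM in DDX17 KO replicates 1, 2 and 3, against 0.268, 0.0279 and 0.340 FPKM in control replicates 1, 2 and 3. MIR100HG, the host of miR-100, let-7a-2 and miR-125b-1, stood at 0.790, 0.227 and 0.462 FPKM in DDX17 KO replicates 1, 2 and 3, against 0.367, 0.138 and 0.326 FPKM in control replicates 1, 2 and 3. In both genes DDX17 KO replicates 1 and 3 were above every control and DDX17 KO replicate 2 was not. MIR137HG partly overlaps DPYD on the same strand. DPYD averaged 8.95 ± 4.21 FPKM in DDX17 KO and 5.49 ± 1.35 FPKM in controls (SD, n = 3 each). Inside MIR100HG, on its strand, lie BLID and AP000755.1. BLID averaged 0.802 ± 0.319 FPKM and AP000755.1 0.450 ± 0.261 FPKM in DDX17 KO. In controls they averaged 0.257 ± 0.0223 and 0.191 ± 0.0700 FPKM. How fragments were divided between these genes and the hosts was not tested. MIR181A1HG, the host of miR-181a-1 and miR-181b-1, stood at 0.383, 0.939 and 0.699 FPKM in DDX17 KO replicates 1, 2 and 3, against 0.485, 0.155 and 0.329 FPKM in control replicates 1, 2 and 3. MIR4500HG stood at 0.251, 0.0454 and 0.207 FPKM in DDX17 KO and at 0.0984, 0.0175 and 0.117 FPKM in controls, in the same order of replicates.

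The remaining hosts above 0 in at least 4 libraries were MIR5689HG, MIR663AHG, MIR22HG, MIR194-2HG and MIR497HG, all with groups that overlapped. MIR22HG, the host of miR-22, ranged from 0.0294 to 0.0887 FPKM in DDX17 KO and from 0.0286 to 0.0422 FPKM in controls. MIR194-2HG, which carries miR-192 and miR-194-2, best known from liver and gut, had 3, 1 and 0 fragments in DDX17 KO replicates 1, 2 and 3, against 2, 1 and 0 in control replicates 1, 2 and 3. MIR663AHG ranged from 0.0862 to 0.198 FPKM in DDX17 KO and from 0.0789 to 0.103 FPKM in controls. MIR5689HG ranged from 0 to 0.224 FPKM in DDX17 KO and from 0.126 to 0.330 FPKM in controls, and MIR497HG from 0 to 0.0408 FPKM in DDX17 KO and from 0 to 0.0298 FPKM in controls. MIR200CHG, the host of the epithelial miR-200c and miR-141, had 3 fragments in control replicate 1 and was listed at 0 in the other 5 libraries.

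Of 31 genes that process microRNAs 28 were tested, and 0 were called in either direction. Their median log2 fold change was -0.01, and no overlap was seen for 3 of the 28, DDX5 higher and DDX17 and DIS3L2 lower in DDX17 KO. Of all genes tested 0.0384% were called and 20.7% did not overlap, 8.09% higher and 12.6% lower. DROSHA stood at 25.4, 10.4 and 22.2 FPKM in DDX17 KO replicates 1, 2 and 3, against 14.0, 11.9 and 14.5 FPKM in control replicates 1, 2 and 3, with DDX17 KO replicate 2 below every control. DICER1 stood at 8.66, 2.86 and 10.6 FPKM in DDX17 KO replicates 1, 2 and 3, against 4.52, 1.41 and 2.96 FPKM in control replicates 1, 2 and 3, with DDX17 KO replicate 2 among the controls. DGCR8 averaged 2.44 ± 1.25 FPKM in DDX17 KO and 2.99 ± 0.551 FPKM in controls (SD, n = 3 each). DDX5, the paralogue of DDX17, averaged 26.4 ± 1.87 FPKM in DDX17 KO and 14.4 ± 5.22 FPKM in controls (limma adjusted p 0.351). DIS3L2, an exonuclease that degrades uridylated let-7 precursors, averaged 2.25 ± 0.288 FPKM in DDX17 KO and 2.58 ± 0.0621 FPKM in controls. The most abundant of the list were ILF2, at 115 ± 36.7 FPKM in DDX17 KO and 138 ± 9.66 FPKM in controls, and XRN2, at 70.9 ± 17.0 FPKM in DDX17 KO and 51.6 ± 17.6 FPKM in controls.

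Of 41 protein-coding genes that host microRNAs 32 were tested, with a median log2 fold change of -0.05 and 0 called. The groups did not overlap in 1 higher and 4 lower in DDX17 KO, against 8.09% and 12.6% of all genes tested. SREBF1, the lipogenic regulator that carries miR-33b, averaged 4.62 ± 2.23 FPKM in DDX17 KO and 11.8 ± 2.11 FPKM in controls (SD, n = 3 each; limma adjusted p 0.279). SREBF2, its sterol-responsive relative with miR-33a, averaged 12.1 ± 5.13 FPKM in DDX17 KO and 21.7 ± 2.57 FPKM in controls (limma adjusted p 0.357). LPP, the host of miR-28, averaged 4.02 ± 1.52 FPKM in DDX17 KO and 1.37 ± 0.387 FPKM in controls (limma adjusted p 0.298). The groups of these 3 genes did not overlap. The most abundant of these hosts were HUWE1, at 104 ± 43.2 FPKM in DDX17 KO and 89.0 ± 25.6 FPKM in controls, and HNRNPK, at 58.8 ± 2.58 FPKM in DDX17 KO and 61.5 ± 5.88 FPKM in controls.

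Of 12 noncoding hosts with other names 8 were tested, with a median log2 fold change of 0.30 and 0 called. The groups did not overlap in 3 higher and 1 lower in DDX17 KO, against 8.09% and 12.6% of all genes tested. H19, the imprinted host of miR-675, stood at 492, 434 and 402 FPKM in DDX17 KO replicates 1, 2 and 3, below the 659, 822 and 610 FPKM of control replicates 1, 2 and 3 (limma adjusted p 0.338). LINC00472 stood at 8.49, 4.13 and 8.03 FPKM in DDX17 KO replicates 1, 2 and 3, above the 3.20, 1.35 and 2.20 FPKM of control replicates 1, 2 and 3, a log2 fold change of 1.27 (limma adjusted p 0.282). NEAT1, the RNA scaffold of paraspeckles, averaged 93.5 ± 11.4 FPKM in DDX17 KO and 60.3 ± 5.99 FPKM in controls (SD, n = 3 each), and its groups did not overlap (limma adjusted p 0.336).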

How the data were processed

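The 6 libraries were grouped by their labels, 3 per group. What the authors deposited is FPKM by gene, in a column for each library. Per the submitters' processing notes the build was hg38 and the tools were HISAT2, StringTie, edgeR and CASAVA 1.8, with no role given. The sources used here give neither the annotation release nor the strand setting. GENCODE release 29 held 59 of the 60 host genes, 53 at the same locus, and gave transcripts, exons and GC content. For genes with 1 transcript, FPKM times length fell on whole multiples of 1 step per library, within 0.05 of a whole number up to 20 fragments for nearly all values, which gave the estimated depth. Floors of 3 fragments cover counting error only, and for genes with several transcripts they rest on the median length, which may not be the length behind the FPKM.

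The test was limma 3.58.1 in R 4.3.3, two-sided, with an intensity trend, on log2(FPKM + 1), for genes that averaged 0.5 FPKM or more, with Benjamini-Hochberg adjustment. That scale understates the change of low genes. The fit was tested on simulated data, and pandas 2.3.3 under Python 3.11.15 handled the tables. The members and lists were chosen with earlier results of these data known. Every host gene in the test was named, and of the others those above 0 in at least 4 libraries. MIR200CHG and the hosts named at 0 were chosen after their values were seen. From each other list the 2 most abundant genes and up to 2 per direction without overlap were named, with DROSHA, DGCR8, DICER1 and DDX5. Deviations from the group means of same-numbered libraries correlated at 0.300, 0.546 and 0.214, each over 0.1, so the replicate numbers were also used as a block. The pairing comes from these values and not from the labels. Control replicate 1 correlated with DDX17 KO replicate 3 as well, at 0.329, and control replicate 3 with DDX17 KO replicate 1, at 0.190. The correlations therefore do not show that the libraries numbered 1 and 3 are paired by number. The other alternatives were pseudocounts, scalings, filters, variance models, a GC and length correction, voom on approximate fragments, and libraries left out.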

Additional observations from a re-analysis of the deposited data

How the results depend on the processing

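No host gene passed in any of the 18 other settings. With the replicate block 4 genes were called over all genes, against 6 without it, and the block changed no call of a host gene; at an unadjusted limma p under 0.05 it gave 4460 genes, against 2109 without it. Over all genes 3 were called with no filter, 11 with the GC content and length correction, 1376 without both libraries numbered 2, and 3 to 572 with each library left out, most of them without DDX17 KO replicate 2. The host genes with groups that did not overlap numbered 4 of 36 with no filter (15.4% of all genes), 0 of 7 at a mean of at least 2 FPKM (19% of all genes), 5 of 14 without both libraries numbered 2 (66.4% of all genes), and 2 to 4 of 14 with each library left out (25.3% to 60.8% of all genes). The median log2 fold change of the host genes was 0.24 at a pseudocount of 0.01, 0.0050 at a mean of at least 2 FPKM, 0.30 by voom, and 0.0039 to 0.18 with each library left out, lowest without DDX17 KO replicate 1. Signs turned for MIR4458HG, at 0.0050 in the report, with pseudocounts of 0.1 (-0.0072) and 0.01 (-0.0100), quantile normalization (-0.060) and the GC correction (-0.16). With the GC correction MIR17HG was at -0.69, MIR222HG at 0.24, MIR31HG at 0.32, MIR181A2HG at 0.042 and MIR193BHG at 0.072, and it also turned MIRLET7BHG (0.23), MIR99AHG (-0.086) and MIR210HG (0.014), and leaving out both libraries numbered 2 turned MIR31HG (-0.030). With single libraries left out MIR31HG ran from -0.12 to 0.37, MIRLET7BHG from -0.29 to 0.11, MIR4458HG from -0.12 to 0.20, MIR762HG from -0.023 to 0.31 and MIR3936HG from -0.21 to 0.10. The cause of these moves was not tested. Few fragments cover the hairpins, where 106 of the 161 values above 0 rest on 1 fragment.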
